A study of Mus musculus with 8 samples.

Results

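Sphingosine 1-phosphate (S1P) is a lipid mediator, and the genes described here are its 5 G protein-coupled receptors (S1pr1, S1pr2, S1pr3, S1pr4 and S1pr5), the sphingosine kinases that make it (Sphk1 and Sphk2) and the lyase that breaks it down irreversibly (Sgpl1). These 8 genes of the 54146 in the deposited count table were chosen by symbol, with their counts in the same FCGR4+ against FCGR4- comparison already known, so their differences between the populations are given as a description and not as tests. All 8 were among the 17095 genes with enough counts to be fitted (at least 10 counts in at least 4 of the 8 libraries).

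Epididymal white adipose tissue (eWAT) came from 4 C57Bl6 mice fed a high fat diet ad libitum for 24 weeks and then given 30% less food for 2 weeks, a short-term caloric restriction (stCR). From each mouse, eWAT macrophages were flow-sorted into a population with surface FCGR4, an activating receptor for IgG, and a population without it, which gave 4 FCGR4+ and 4 FCGR4- libraries paired by mouse. Every mouse had been through stCR, so the libraries hold no ad libitum group, and both populations shared the same genotype and diet. The study used male mice and a gate of CD45+ CD3- B220- Ly6G- SiglecF- CD11b+ cells, the labels give no age, and how LDL receptor deficiency was induced in these mice, if it was, was not given in the sources used here.

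S1P is high in blood and lymph and low inside tissues, and white blood cells sense that difference when they leave a tissue. The receptors divide the work: S1pr1 couples to Gi and draws cells towards S1P, S1pr2 couples to G12 and G13 and restrains migration, S1pr3 is best known in vessel wall and stromal cells, S1pr4 in lymphoid and other blood cells, and S1pr5 in natural killer (NK) cells and in patrolling (nonclassical) monocytes, where it serves exit from bone marrow. Inside the cell, the kinases phosphorylate sphingosine released from ceramide, phosphatases reverse that step and the lyase Sgpl1 ends the pathway.

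The libraries held 35992794 to 66856746 assigned read counts, so that 3 counts, taken here as the detection floor of a library, corresponded to 0.0439 to 0.0882 normalized CPM (counts relative to the library total, scaled by edgeR's TMM factors). Fcgr4, the sorted marker, was higher in the FCGR4+ library of all 4 mice, at 199 ± 42.4 against 66.1 ± 18.3 CPM (mean ± SD, n = 4 each). Its fitted log2 fold change was 1.61 ± 0.17 (SE; adjusted p = 0.0162, paired edgeR quasi-likelihood test with Benjamini-Hochberg adjustment). Of 9 macrophage markers, all were fitted and none passed an adjusted p of 0.1 (3 were higher and 0 lower at an unadjusted p under 0.05, and likewise with DESeq2). Their summed level was 21636 to 46415 CPM in FCGR4+ and 18967 to 43933 CPM in FCGR4- libraries, and mouse 2 was the highest in both. Across all genes, 14 were called higher in FCGR4+ macrophages (0.0819% of those tested) and 203 lower (1.19%). Of the 8 S1P genes, 1 was called higher, S1pr5, and 0 lower (2 lower at an unadjusted p under 0.05), and the other 7 were not called. With DESeq2, the method the study used for this contrast, 196 genes were called higher (1.0%) and 968 lower (4.94%). S1pr5 was then on the higher side and S1pr3 and Sphk1 on the lower. The median log2 fold change was -0.21 over the 8 genes and -0.0025 over all genes tested, and 6 of the 8 values were below 0.

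**Figure D1:**
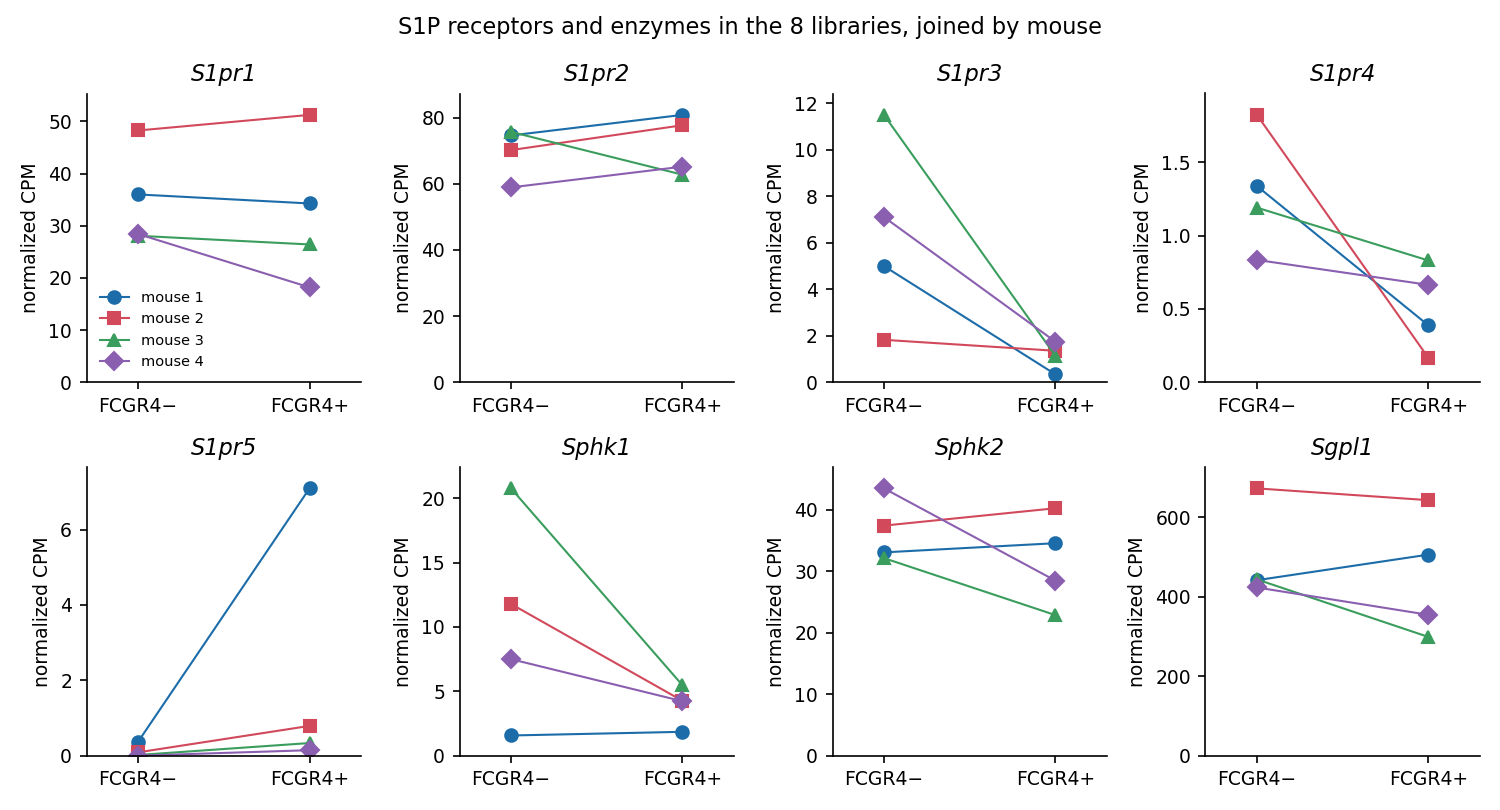
Normalized CPM (vertical axis, from 0, a separate scale for each gene) of the 8 S1P genes in FCGR4- and FCGR4+ libraries, with a line joining the 2 libraries of each of 4 mice. S1pr5 was higher in FCGR4+ macrophages of every mouse but by far the most in mouse 1, S1pr3 and S1pr4 were lower in every mouse, and the lines of S1pr1, S1pr2, Sphk2 and Sgpl1 go up in some mice and down in others, with the steepest falls in mouse 4 (S1pr1, Sphk2) and mouse 3 (Sgpl1).

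S1pr5 was higher in FCGR4+ than in FCGR4- macrophages of all 4 mice, at low counts that came mostly from 1 mouse. The gene (chr9:21242912-21248443, minus strand, mm10) had 421, 38, 21 and 7 counts in the FCGR4+ libraries of mice 1, 2, 3 and 4. Its counts in the FCGR4- libraries of the same mice were 24, 3, 1 and 0. On the CPM scale these were 7.09, 0.790, 0.335 and 0.145 in FCGR4+ macrophages. The FCGR4- values were 0.369, 0.0882 and 0.0180 CPM in mice 1 to 3, and 0 of the counts in mouse 4, which allows up to 0.0439 CPM. The mice stood in the same order in both populations, and mouse 1 alone gave 86.4% of the 487 FCGR4+ counts. The ranges overlapped, because the FCGR4- library of mouse 1 was above the FCGR4+ libraries of mice 3 and 4. S1pr5 passed the filter on low counts through 3 FCGR4+ and 1 FCGR4- libraries, so its place among the fitted genes itself depended on the population where it was higher.

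Within a mouse, the difference was several-fold wherever it could be measured. The FCGR4+ level was 19.2 times the FCGR4- level in mouse 1 (exact 95% interval 12.7 to 30.3, counting error only). In mouse 2 the ratio was 8.96 (2.84 to 45.4) and in mouse 3 it was 18.6 (2.99 to 769). For mouse 4, where the FCGR4- library had no count, the FCGR4+ level was at least 3.31-fold higher than the 3-count floor of that library, and with the counting error of its 7 counts the lower end of the exact 95% interval was 2.04. The intervals of mice 1 to 3 overlap, so at this depth the ratios were not told apart, while the FCGR4+ levels themselves spanned from 0.145 to 7.09 CPM. Summed over mice 2 to 4, 66 FCGR4+ counts stood against 4 FCGR4- counts, a ratio of 16.4 (6.10 to 61.9). The fitted log2 fold change was 4.01 ± 0.61 (SE), and no called gene had a higher one. S1pr5 was not called without the mouse pairing, nor without mouse 2. Without mouse 1 it no longer passed the filter on low counts, and with that filter removed its log2 fold change was 4.01 and it was not called.

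**Figure D2:**
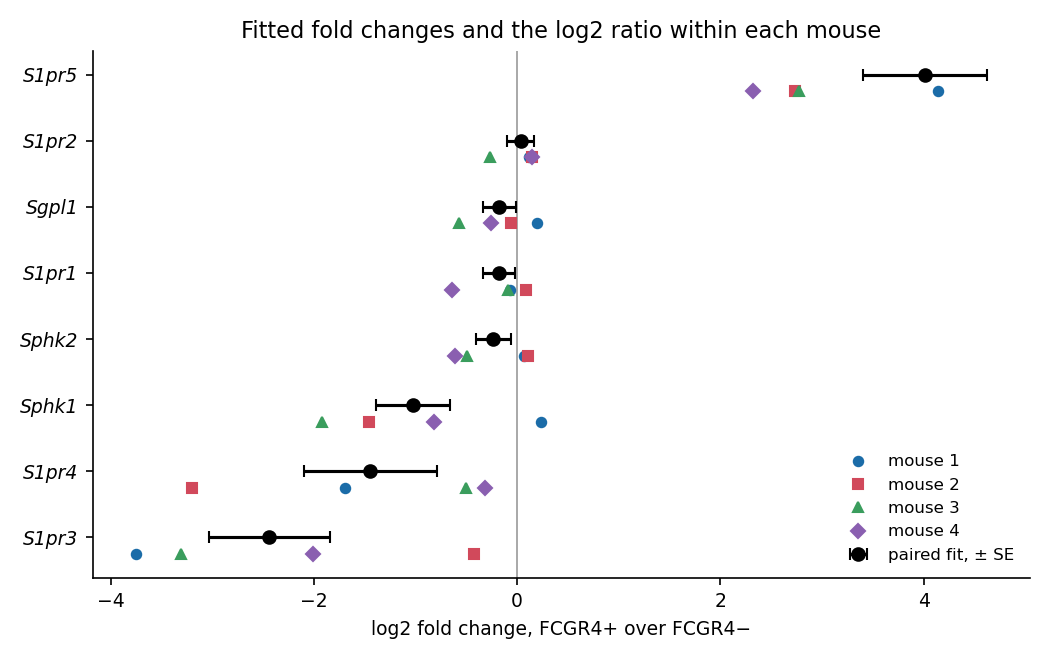
Fitted log2 fold change of FCGR4+ over FCGR4- macrophages (horizontal axis, black circles, bars ± SE of the paired fit) for the 8 S1P genes, with the log2 ratio within each of 4 mice below it (coloured symbols, from CPM with a prior count of 2, which pulls low genes such as S1pr5 towards 0). S1pr5 is at 4.01 with all 4 mice above 2, S1pr3 and S1pr4 have all 4 mice below 0 with a wide spread, and S1pr1, S1pr2, Sphk2 and Sgpl1 have mice on both sides of 0, from -0.64 (S1pr1, mouse 4) to 0.20 (Sgpl1, mouse 1).

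Because S1pr5 is known in nonclassical monocytes and NK cells, the markers of both were set beside it. The 12 nonclassical monocyte markers, all of them fitted, summed to 610, 346, 346 and 314 CPM in the FCGR4+ libraries of mice 1 to 4 and to 333 to 399 CPM in FCGR4- libraries. The FCGR4+ library of mouse 1, which held most of the S1pr5 counts, also had the highest level of 7 of these 12 markers among the 8 libraries. It was likewise the highest for 11 of the 45 sphingolipid metabolism genes and 8 of the 29 receptor signaling genes described below. Cx3cr1 peaked instead in the FCGR4+ library of mouse 2, Fabp4 in that of mouse 3, and Itgal, Nr4a1 and Pglyrp1 in the FCGR4- library of mouse 3. In the FCGR4+ library of mouse 1, Adgre4, an adhesion receptor of patrolling monocytes, was at 180 CPM against 36.7 to 45.5 CPM in the other FCGR4+ libraries. Adgre4 was also highest in mouse 1 among FCGR4- libraries, at 97.7 CPM. Treml4 stood there at 28.0 CPM against 4.25 to 6.99 CPM, and Ace, the angiotensin-converting enzyme, at 24.1 against 5.06 to 7.15 CPM. Unlike S1pr5, both Treml4 and Ace were lower in FCGR4+ than in FCGR4- macrophages of the other 3 mice, where FCGR4- levels were 8.67 to 18.2 CPM and 8.996 to 11.6 CPM. Over all mice, 1 of the 12 was called higher, the CD300 family receptor gene Cd300e, and 1 lower, the peptidoglycan-binding Pglyrp1, and the list's median log2 fold change was -0.23. Cd300e was at 16.9, 4.61, 2.62 and 7.88 CPM in the FCGR4+ and 1.38, 1.38, 0.469 and 2.52 CPM in the FCGR4- libraries, a log2 fold change of 2.36 ± 0.39 (SE; adjusted p = 0.0631, paired edgeR). Cd300e, unlike S1pr5, did not overlap between the populations, though mouse 1 was again the highest.

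The summed NK cell markers moved in the opposite direction to S1pr5. The 10 markers, 8 of them fitted, summed to 3.03 to 6.64 CPM in FCGR4+ and 13.8 to 38.2 CPM in FCGR4- libraries, lower in FCGR4+ macrophages of all 4 mice. Of these, 3 were called lower, the receptor subunit Klrd1, the protease Gzmb and the granule gene Nkg7, and 0 higher (8 lower and 0 higher with DESeq2). Tbx21, which encodes the factor T-bet that NK cells need for S1pr5, was at 0.104 CPM in the FCGR4+ library of mouse 2 and at 0 counts in the others, against 0.249 to 1.06 CPM in FCGR4- libraries. Eomes was likewise at 0 counts in 3 FCGR4+ libraries. The part of either cell type in the S1pr5 counts was not tested, and in bulk libraries fewer cells of a type and less RNA per cell cannot be told apart.

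**Figure D3:**
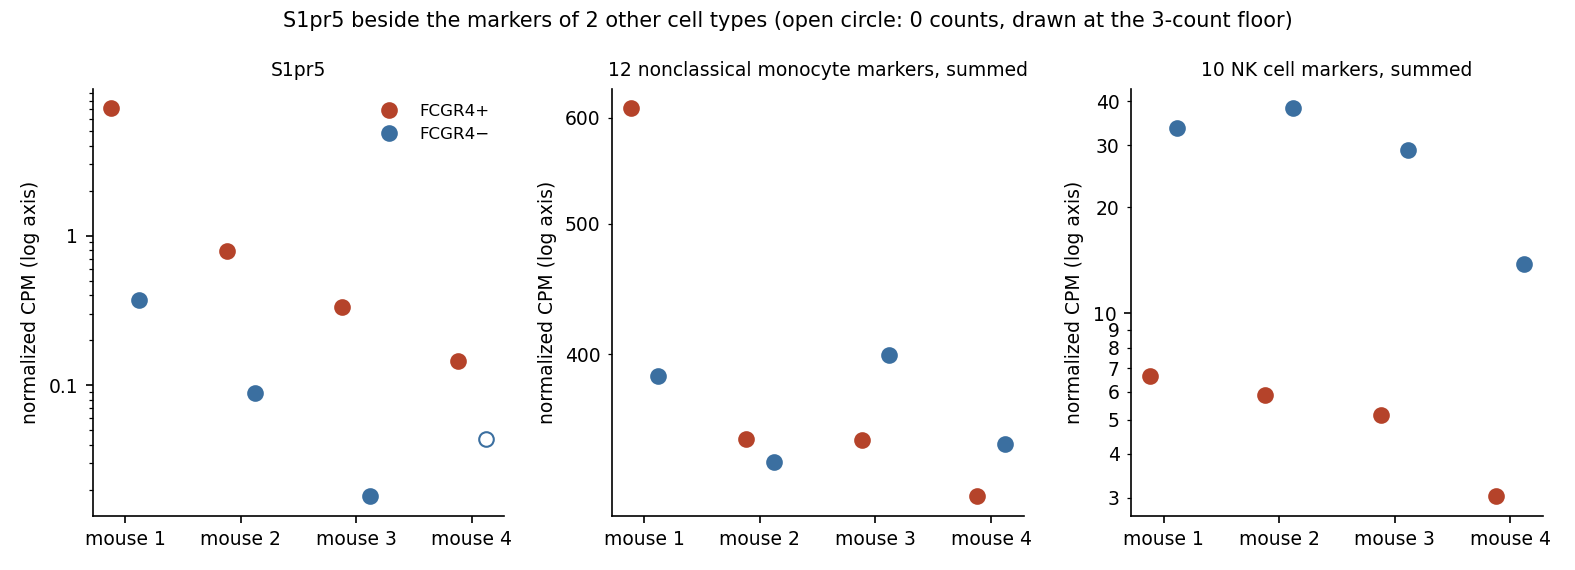
Normalized CPM (vertical log axes) of S1pr5, of 12 summed nonclassical monocyte markers and of 10 summed NK cell markers in the FCGR4+ and FCGR4- libraries of 4 mice, with the open circle marking 0 counts drawn at the 3-count floor. S1pr5 and the monocyte sum share their highest library (FCGR4+, mouse 1, at 7.09 and 610 CPM), while the NK cell sum is lower in FCGR4+ than in FCGR4- libraries of every mouse.

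By their pattern over the 8 libraries, the 10 genes closest to S1pr5 (Pearson r of log2 CPM of 0.94 to 0.98) were Wdfy3, Naa30, Idi1, Lilra5, Farsb, Qk, Cdc6, Ap1s2, Zfp318 and Fli1. All 10 had their highest level in the FCGR4+ library of mouse 1, and none was called (lowest adjusted p 0.204, Naa30, paired edgeR). The shared peak follows largely from the choice by r, because S1pr5 was at 7.09 CPM in that library and at most 0.790 CPM elsewhere. Lilra5, an immunoglobulin-like receptor of myeloid cells, was at 16.7 CPM in that library and at most 8.69 CPM in the other 7. Qk, an RNA-binding protein, was at 332 CPM there and at most 198 elsewhere. The 8 points share 4 mice and the ranking was not stable: without mouse 1 or mouse 2, 3 of the 10 names remained among the nearest 10, and without mouse 3 or mouse 4, 4 remained.

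S1pr3 and S1pr4 were the receptors with lower values in FCGR4+ macrophages. S1pr3 (chr13:51408639-51422797, plus strand) was at 0.337, 1.35, 1.13 and 1.74 CPM in the FCGR4+ and 4.996, 1.82, 11.5 and 7.11 CPM in the FCGR4- libraries of mice 1 to 4. All 4 mice had the lower value in FCGR4+ macrophages and the ranges did not overlap, but in mouse 2 the values were close. The fitted log2 fold change was -2.44 ± 0.59 (SE), with -1.97 to -3.03 when 1 mouse was left out. S1pr4 (chr10:81497747-81500132, minus strand) was near the floor of useful counting, with 0.388, 0.166, 0.830 and 0.664 CPM in FCGR4+ and 1.34, 1.82, 1.19 and 0.834 CPM in FCGR4- libraries. Its ranges touched without overlapping, with the FCGR4+ library of mouse 3 just below the FCGR4- library of mouse 4. The log2 fold change of -1.44 ± 0.66 (SE) was carried by mice 1 and 2 (-2.56 when fitted alone) more than by mice 3 and 4 (-0.45). Of all genes tested, 3.02% had 4 FCGR4+ values below the 4 FCGR4- values and 0.907% had them above, and 2 of the 8 S1P genes were of the first kind.

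The genes nearest to S1pr3 in pattern were Pcolce2, a secreted enhancer of procollagen processing, with r = 0.98, then Cd7, a lymphocyte surface protein, and Nlrp12, an innate immune sensor, both with r = 0.96. Nearest to S1pr4 was Cd6, a T cell surface receptor, with r = 0.94, followed by Mir142hg and Wdr54 at 0.93. All 6 had negative fitted log2 fold changes and none of them was called.

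Markers of several other cell types were lower in FCGR4+ libraries together with S1pr3 and S1pr4. The 8 fibroblast markers, all fitted, summed to 146 to 299 CPM in FCGR4+ and 364 to 1564 CPM in FCGR4- libraries, and 4 were called lower (Pdgfra, Col1a2, Col3a1 and Lum), or all 8 with DESeq2. Of 8 mural cell markers 7 were fitted and 1 was called lower, Pdgfrb, with sums of 4.99 to 9.82 against 9.85 to 20.8 CPM. None of the 7 fitted endothelial markers of 8 was called (2 mural and 0 endothelial markers were lower with DESeq2, and 2 mural and 1 endothelial at an unadjusted p under 0.05), and their sums overlapped, at 14.4 to 24.7 against 17.6 to 30.0 CPM. S1pr3 had its highest level, 11.5 CPM, in the FCGR4- library of mouse 3, which had the highest fibroblast, mural and neutrophil sums. The order of the other FCGR4- libraries differed. The fibroblast sum was 895 CPM in mouse 1 and 618 CPM in mouse 4, where S1pr3 was at 4.996 and 7.11 CPM.

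Among blood cell lists, 5 of 8 T cell markers were called lower (Cd3d, Cd3g, Trac, Trbc2 and Lck), with sums of 1.62 to 10.02 CPM in FCGR4+ and 9.45 to 42.8 CPM in FCGR4- libraries. Among B cell markers, the immunoglobulin genes Ighm and Igkc were called lower, and the list had sums of 264 to 416 against 638 to 3707 CPM. Dendritic cell markers summed to 15.6 to 23.0 against 53.4 to 100.4 CPM, with 3 of 8 called lower (Flt3, Ccr7 and Cd209a). Neutrophil markers summed to 76.6 to 491.4 against 344 to 2096 CPM, with 5 of 7 fitted called lower (S100a8, S100a9, Cxcr2, Mmp8 and Retnlg). All 7 fitted mast cell and basophil markers of 8 were called lower, with sums of 6.84 to 24.0 against 194 to 2070 CPM, and the eighth, Mcpt8, was at 0 counts in all FCGR4+ libraries. In each of these 5 lists the FCGR4+ sum was below the FCGR4- sum in all 4 mice, and none of their genes was called higher. With DESeq2, 8 T cell, 5 dendritic cell, 6 neutrophil and 7 mast cell and basophil markers were lower. The part of such cells in the S1pr3 and S1pr4 values was not tested.

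S1pr1 and S1pr2 were the main receptors by level in both populations. S1pr1 (chr3:115710433-115715072, minus strand) was at 34.3, 51.3, 26.4 and 18.2 CPM in FCGR4+ and 36.0, 48.3, 28.1 and 28.4 CPM in FCGR4- libraries of mice 1 to 4. The mice differed from each other more than the populations did, and only mouse 4 had a visible step down. Its log2 fold change was -0.18 ± 0.16 (SE). S1pr2 (chr9:20962361-20976781, minus strand) was at 80.8, 77.7, 62.7 and 65.2 CPM in FCGR4+ and 74.6, 70.2, 75.7 and 58.9 CPM in FCGR4- libraries. The log2 fold change of 0.03 ± 0.14 (SE) had no stable sign, since it was -0.06 when libraries were scaled by total counts alone and -0.08 in mice 3 and 4 alone. Scaled to transcript length, S1pr1 made up 49.5% ± 9.12 (SD, n = 4) of the summed receptor level in FCGR4+ macrophages and 51.2% ± 7.80 of it in FCGR4- macrophages. S1pr2 made up 44.4% ± 8.10 and 39.5% ± 3.99. The remaining receptors shared a few percent: S1pr3 had 1.38% ± 0.962 in FCGR4+ and 6.70% ± 4.44 in FCGR4- libraries, S1pr4 1.20% ± 0.874 and 2.39% ± 0.447, and S1pr5 3.48% ± 5.42 and 0.203% ± 0.298. S1pr5 reached 11.6% of the receptor level in the FCGR4+ library of mouse 1.

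In pattern over the libraries, S1pr1 was closest to Irak4, a kinase of Toll-like receptor signaling (r = 0.99), then to Slc17a9, a vesicular nucleotide transporter (0.99), and Hdhd5 (0.98). S1pr2 was closest to Gm18711, Glyctk and Ddx46, with r of 0.95, 0.95 and 0.94. S1pr2 and S1pr5 lie on the same strand of chromosome 9, 266 kb apart. Of the 19 annotated genes wholly between them, 7 were fitted and none was called (0 at an unadjusted p under 0.05, and 0 with DESeq2), with log2 fold changes from -0.17 to 0.38. These were Mrpl4, Icam1, Icam5, Tyk2, Cdc37, Pde4a and Keap1, and the highest of the 7, the phosphodiesterase gene Pde4a, had 0.38 ± 0.42 (SE). The lowest adjusted p among them was 0.716 (Keap1, paired edgeR).

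To show how differently the receptor genes with unequal levels begin, the 250 bases before the RefSeq start site are given for S1pr2, S1pr3, S1pr4 and S1pr5 (GRCm38.p6, 5′ to 3′ on the gene's strand). RefSeq promoter entries matched 7 of the 8 genes (all but S1pr1). Capitals mark the GC box, GGGCGG or its reverse complement CCGCCC, a motif of Sp and KLF factors, and the E-box CACCTG or CAGGTG, a motif of ZEB factors.
S1pr2 (chr9:20976794-20977043, minus strand): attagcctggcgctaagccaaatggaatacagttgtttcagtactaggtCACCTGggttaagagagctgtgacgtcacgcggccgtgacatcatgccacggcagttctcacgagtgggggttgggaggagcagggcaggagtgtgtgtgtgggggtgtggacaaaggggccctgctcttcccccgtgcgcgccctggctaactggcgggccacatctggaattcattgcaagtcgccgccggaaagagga
S1pr3 (chr13:51408368-51408617, plus strand): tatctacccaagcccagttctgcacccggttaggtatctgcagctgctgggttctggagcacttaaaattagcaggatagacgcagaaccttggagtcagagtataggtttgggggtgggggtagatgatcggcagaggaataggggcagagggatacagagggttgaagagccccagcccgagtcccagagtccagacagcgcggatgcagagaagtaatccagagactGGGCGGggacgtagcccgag
S1pr4 (chr10:81500138-81500387, minus strand): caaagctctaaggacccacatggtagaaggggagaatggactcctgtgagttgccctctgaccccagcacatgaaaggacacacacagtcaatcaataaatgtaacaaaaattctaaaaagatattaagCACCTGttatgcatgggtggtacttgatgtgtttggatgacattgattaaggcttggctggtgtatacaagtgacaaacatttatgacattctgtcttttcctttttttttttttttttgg
S1pr5 (chr9:21248444-21248693, minus strand): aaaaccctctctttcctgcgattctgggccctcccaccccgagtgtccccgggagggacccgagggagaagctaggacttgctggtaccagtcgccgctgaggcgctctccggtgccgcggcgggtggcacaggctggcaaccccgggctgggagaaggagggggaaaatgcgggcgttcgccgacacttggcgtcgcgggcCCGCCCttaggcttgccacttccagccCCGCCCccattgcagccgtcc

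The S1pr5 window was 69.2% G and C with 22 CpG dinucleotides and 2 GC boxes. The S1pr4 window stood at the other end, with 38.8% G and C, 0 CpG and 1 E-box. S1pr2 had 59.2% G and C, 14 CpG and 1 E-box, and S1pr3 56.4%, 9 CpG and 1 GC box. Over all 32851 RefSeq promoter windows of this length the medians were 52.4% and 6 CpG, 32.7% held a GC box and 17.2% this E-box on either strand. A T-box motif (AGGTGTGA or TCACACCT) was present in 1.12% of all windows and an NR4A motif (AAAGGTCA or TGACCTTT) in 1.34%, and neither was in any window of the 7 genes. A match here describes the letters and not a bound site.

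Sgpl1 was the most abundant S1P gene and the synthesizing kinases were far lower. Sgpl1 (chr10:61098642-61147703, minus strand) was at 506, 643, 299 and 355 CPM in FCGR4+ and 442, 673, 444 and 423 CPM in FCGR4- libraries of mice 1 to 4. Mouse 2 was the highest in both populations, and the ranges overlapped widely. Its log2 fold change of -0.17 ± 0.16 (SE) was 0.06 in mice 1 and 2 and -0.43 in mice 3 and 4. Sphk2 (chr7:45709467-45718002, minus strand) was at 34.6, 40.2, 22.9 and 28.5 CPM in FCGR4+ and 33.1, 37.4, 32.1 and 43.5 CPM in FCGR4- libraries. Here too mice 1 and 2 stood on one side (log2 fold change 0.08) and mice 3 and 4 on the other (-0.57), and the fit over all 4 gave -0.23 ± 0.17 (SE). Sphk2 counts are less certain than the others, because 912 of its 4159 exon bases (21.9%) are shared with the opposite-strand genes Rpl18 and Dbp, and read pairs that touched the exons of several genes were left unassigned.

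Sphk1 (chr11:116530925-116536674, plus strand), the kinase that growth and inflammatory signals activate, varied more between mice than Sphk2 or Sgpl1. It was at 1.85, 4.26, 5.47 and 4.23 CPM in FCGR4+ libraries. The FCGR4- libraries had 1.57, 11.8, 20.8 and 7.50 CPM. Mice 2, 3 and 4 had the lower value in FCGR4+ macrophages, while mouse 1 was low in both populations and slightly the other way. The log2 fold change was -1.03 ± 0.36 (SE), with -0.72 (without mouse 3) to -1.41 (without mouse 1) when 1 mouse was left out and -0.65 in mice 1 and 2 alone. Sphk1 made up 10.4% ± 5.39 (SD, n = 4) of the summed level per length of both kinases in FCGR4+ libraries and 18.6% ± 13.6 in FCGR4- libraries, reaching 36.0% in 1 FCGR4- library. The gene nearest in pattern was Clec4n, the C-type lectin dectin-2 of inflammatory monocytes and macrophages (r = 0.99, 52.5 CPM in FCGR4+ and 185 in FCGR4- libraries on average), followed by Fam104a and Gm5452, both with r = 0.99. Sphk2 was nearest to Wdr5, Tbcd and Gm13316 (r of 0.97, 0.97 and 0.96), and Sgpl1 to Entpd5, Rgs19 and Tm9sf4 (each 0.98).

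Levels can be set against each other only per length, so counts were divided by each gene's exon length and scaled to TPM-like units, the same total in each library, then averaged over the 2 libraries of a mouse. Sgpl1 led with 124 ± 37.0 TPM (SD, n = 4), above 94.7% of the genes tested. S1pr1 at 17.8 ± 6.54, S1pr2 at 14.1 ± 1.81 and Sphk2 at 13.2 ± 2.40 followed, and these 3 could not be ordered because the values of their mice overlapped. Next came Sphk1 at 2.41 ± 1.54, S1pr3 at 1.39 ± 0.771, S1pr5 at 0.732 ± 1.19 and S1pr4 at 0.597 ± 0.0617, again each overlapping its neighbour. Between these tiers there was no overlap: Sgpl1 was 6.94 times S1pr1, and Sphk2 was 5.46 times Sphk1. S1pr5 was ahead of Sphk1, S1pr3 and S1pr4 by its mean in FCGR4+ libraries and last in FCGR4- libraries. The first of these places came from mouse 1: per length, S1pr5 was below Sphk1 in the FCGR4+ libraries of mice 2, 3 and 4, and below S1pr3 and S1pr4 in those of mice 3 and 4. Its 4 mice spread from 0.0407 to 2.51 TPM. S1pr4, at almost the same mean, had the narrowest spread of the low genes, from 0.515 to 0.659.

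**Figure D4:**
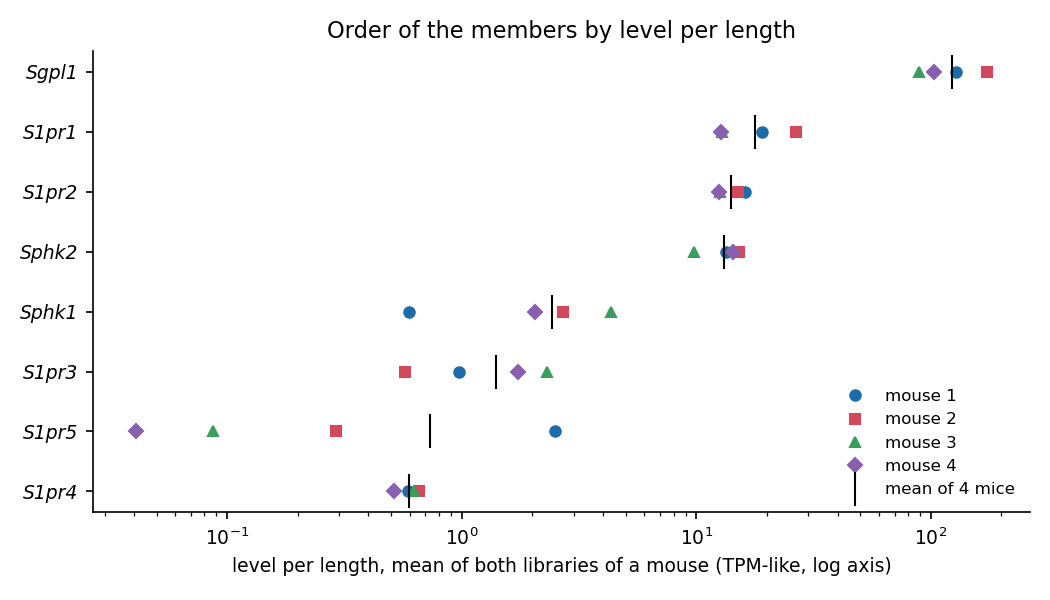
Level per length (horizontal log axis, TPM-like units) of the 8 S1P genes, ordered by the mean of 4 mice (black bar), with 1 symbol per mouse for the mean of its FCGR4+ and FCGR4- libraries. Sgpl1 stands alone at 124, S1pr1, S1pr2 and Sphk2 lie together at 13.2 to 17.8, and the other 4 lie at 0.597 to 2.41 with S1pr5 the most scattered.

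The rest of the pathway was examined in a list of 45 genes of sphingolipid metabolism that feed or drain S1P, of which 36 were fitted. None was called in either direction. At an unadjusted p under 0.05, 2 were higher and 4 lower, and DESeq2 called 0 higher and 2 lower. The median log2 fold change was -0.08, with 25 values below 0 and 11 above, beside -0.0025 for all genes. In de novo synthesis, the serine palmitoyltransferase subunit gene Sptssa had the highest level of its role, 223 TPM, and a log2 fold change of 0.61 ± 0.22 (SE). Degs1, the desaturase that completes ceramide, was at 139 TPM with 0.17 ± 0.12.

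Ceramide is turned into sphingosine, the substrate of the kinases, by ceramidases. The acid ceramidase gene Asah1 led that role at 313 TPM, with a log2 fold change of 0.17 ± 0.13. Psap, whose saposins help lysosomal enzymes strip sugars from sphingolipids, was the highest in the list at 4848 TPM with -0.08 ± 0.12. Cerk, the ceramide kinase, was at 49.6 TPM with -0.25 ± 0.20. None of the 3 was called.

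At the end of the pathway, the 4 fitted phosphatase genes of 5 ranged from -1.24 to 0.20. Sgpp1, the S1P phosphatase of the endoplasmic reticulum, had the highest level, 39.1 TPM, and a log2 fold change of 0.20 ± 0.14. Plpp3, a surface phosphatase that degrades extracellular S1P, had the lowest value, -1.24 ± 0.26, with an adjusted p of 0.13 (paired edgeR; 0.000345 with DESeq2). It was at 6.72, 27.4, 12.6 and 11.7 CPM in FCGR4+ and 22.5, 57.4, 43.2 and 14.9 CPM in FCGR4- libraries, lower in FCGR4+ macrophages of all 4 mice. Among transporters and carriers, Abcc1, an export pump that can carry S1P, was also lower in all 4 mice (30.9 ± 7.26 against 54.4 ± 21.4 CPM, log2 fold change -0.75 ± 0.19, edgeR adjusted p = 0.198, DESeq2 adjusted p = 0.00984). Plpp3 and Abcc1 were the 2 genes of the list that DESeq2 called lower. The exporter Spns2 was barely detected, at 0.249 ± 0.248 and 0.372 ± 0.370 CPM. The carrier gene Apom was at 0 counts in all FCGR4+ libraries and at 0 to 3 counts in FCGR4- libraries, at or under the floor in both. Aldh3a2, which oxidizes the aldehyde that the lyase releases, was at 13.8 TPM with -0.08 ± 0.15.

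Of 29 genes that act below the receptors, 28 were fitted, 0 were called higher and 1 lower (1 and 4 with DESeq2, 1 and 3 at an unadjusted p under 0.05), and the median log2 fold change was -0.11. The gene called lower was Rgs16, a GTPase-activating protein that ends Gi signaling of receptors such as S1pr1. It had 2, 0, 0 and 0 counts in the FCGR4+ and 32, 26, 44 and 49 counts in the FCGR4- libraries, and so passed the filter on low counts only through the FCGR4- libraries. Its FCGR4- level over all mice was 74.0 times the FCGR4+ level (exact 95% interval 20.1 to 616, counting error only). It was not called when any 1 mouse was left out, in either pair of mice alone or with 10 counts required in every library. Rgs16 is also used by activated lymphocytes, whose markers were lower in the same libraries as given above, and their part in its value was not tested.

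No other regulator of the receptors was called by paired edgeR, while DESeq2 also called Cd69, Tbx21 and Eomes lower and Rgs2 higher. Rgs1, the most abundant of the desensitizing genes at 330 TPM, had a log2 fold change of 0.41 ± 0.20, and Cd69, the surface protein that holds S1pr1 inside the cell, had -1.36 ± 0.38 with an adjusted p of 0.261 (paired edgeR; 0.00409 with DESeq2). The Gi subunit gene Gnai2 led the G proteins at 212 TPM with 0.01 ± 0.14. Rac1, the GTPase through which Gi-coupled receptors drive movement, was at 175 TPM with 0.07 ± 0.14. Klf2, the transcription factor that induces S1pr1 in lymphocytes, was at 101 TPM with 0.02 ± 0.18.

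**Figure D5:**
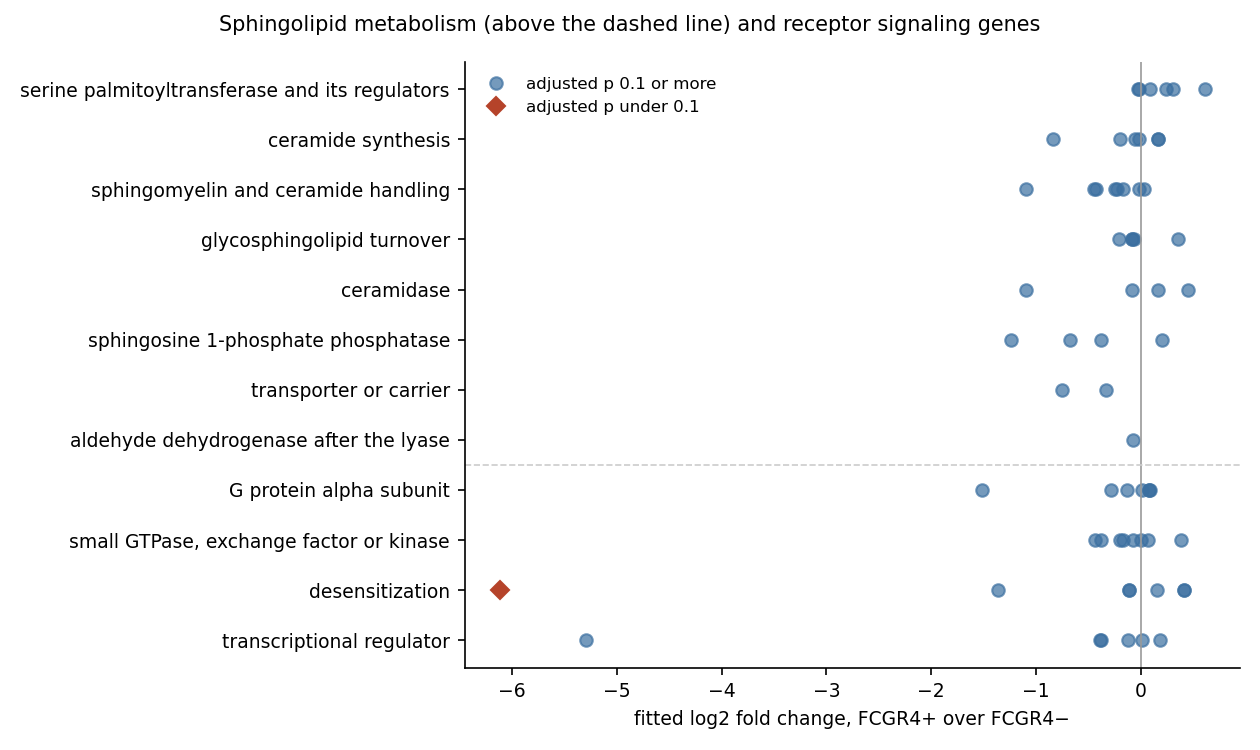
Fitted log2 fold change of FCGR4+ over FCGR4- macrophages (horizontal axis) for the 64 fitted genes of the sphingolipid metabolism and receptor signaling lists, in rows by role, with 1 symbol per gene. Most genes lie within 1 of 0, and the diamond at -6.12 is Rgs16, the 1 gene with an adjusted p under 0.1.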

How the data were processed

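Bulk RNA-seq was measured in 8 libraries from 4 mice. The animal IDs of mice 1 and 2 share a prefix and those of mice 3 and 4 share another, so these pairs were also fitted alone. What the prefix marks was not given in the sources used here. The authors deposited raw counts per gene: reads were aligned with STAR to mm10 and, per the file header, counted with featureCounts 1.6.3 against GENCODE M18 as read pairs, without strand, with multi-mapping pairs counted at each place and pairs on the exons of several genes left out, so that overlapping or repeated genes are uncertain. All 54146 rows are genes. Exon lengths (another column of the deposited file) came with the counts.

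Here, the 17095 genes that reached 10 counts in 4 or more libraries entered a fit with edgeR 4.0.16 (R 4.3.3) by the quasi-likelihood test with TMM scaling and the mouse as a block, as in the study's paired model, and p-values were adjusted by the Benjamini-Hochberg method with a threshold of 0.1. SEs were derived from the fold change and its F statistic. Levels per length are TPM-like: counts over exon length, scaled to the same total in each library. The pairing is by animal: deviations of the 2 libraries of a mouse correlated at 0.29 to 0.43 and those of different mice at a median of -0.06. No 2 libraries of the same population agreed within sampling noise. The study fitted its paired model with DESeq2. Here DESeq2 1.42.0, other scalings and filters, single-mouse omissions and pairs of mice were run as alternatives. Intervals of count ratios are exact (Clopper-Pearson) at 95% and cover counting error only. Scripts were tested on simulated counts.

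The members, the 2 pathway lists and the 11 cell marker lists were chosen with earlier results of these data known. Named genes are the members, pathway genes past the threshold or highest in level within their role, the genes most correlated with each member (10 for S1pr5, 3 for the others), genes between S1pr2 and S1pr5, Fcgr4, and called markers. Plpp3, Cd69, Spns2, Apom, Tbx21, Eomes, Adgre4, Treml4, Ace, Cx3cr1, Fabp4, Itgal and Nr4a1 were named after their values were seen. Values of 1 B cell marker are not reported here.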

Additional observations from a re-analysis of the deposited data

Results flagged for a closer look

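In groups of 4 values, 1 value can lie far from the other 3, and 8 of the 49 groups examined had such a value by Dixon's test at its 95% critical value, where chance gives about 1 in 20. Among the S1P genes, S1pr5 at 7.09 CPM in the FCGR4+ library of mouse 1 stood apart from 0.145 to 0.790 CPM in the others. Sgpl1 stood apart at 673 CPM in the FCGR4- library of mouse 2, against 423 to 444. The log2 ratio of S1pr2 within mouse 3 was -0.27, with the other mice at 0.12 to 0.15.

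Among the marker sums, the nonclassical monocyte markers were at 610 CPM in the FCGR4+ library of mouse 1, against 314 to 346. Adgre4 alone was at 180 CPM there, against 36.7 to 45.5 CPM in the other FCGR4+ libraries. Macrophage markers were at 46415 CPM in the FCGR4+ and 43933 CPM in the FCGR4- library of mouse 2, where Lyz2 made up most of the sum, against at most 24595 and 22371 in the other mice. Neutrophil markers were at 491.4 CPM in the FCGR4+ and 2096 CPM in the FCGR4- library of mouse 3, against at most 116 and 508. S1pr5 and the nonclassical monocyte sum share the library that stands apart, though only 7 of the 12 markers were highest there. The part of nonclassical monocytes in the S1pr5 value was not tested.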

How the results depend on the processing

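The log2 fold changes of the 8 S1P genes moved by less than the SD of the 4 within-mouse ratios under each of the 11 to 14 alternatives that gave a value. S1pr3, S1pr4, S1pr5 and Sphk1 kept their sign in all of them. Fcgr4 stayed higher and called in each alternative.

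Counts of calls depended strongly on the method. Across all genes (14 higher, 203 lower), the fit with no replicate block called 1 and 47, DESeq2 196 and 968, no filter on low counts 159 and 895, the newer quasi-likelihood method (added after seeing the data, as were the next 2) 57 and 572, library size alone 8 higher, and no filter without mouse 1 gave 73 and 513. Mice 1 and 2 alone gave 7 and 108, mice 3 and 4 alone 61 lower, and an adjusted p under 0.05 left 2 and 74. Leaving out 1 mouse gave 2 to 9 higher and 76 to 153 lower.

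Of the S1P genes, S1pr5 was the 1 called higher. The count was 0 with no replicate block (the pairing removed), with 10 counts required in every library, in mice 3 and 4 alone, without mouse 1 and no filter, and at 0.05, and 0 to 1 when 1 mouse was left out. Called lower were 2 with DESeq2, 2 with no filter, 2 without mouse 1 and no filter, 1 with 10 counts in every library, 1 with the newer method, and 0 to 1 when 1 mouse was left out. No other call on the S1P genes changed without the replicate block.

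In the metabolism list, no filter called 1 higher and 3 lower, DESeq2 2 lower, the newer method 2, the every-library filter 1, library size alone 1, no filter without mouse 1 gave 3, and leaving out 1 mouse 0 to 1 lower. In the signaling list DESeq2 called 1 higher and 4 lower, no filter 4 lower, the newer method and no filter without mouse 1 2 each, and the count was 0 with the every-library filter, in each pair of mice, at 0.05 and whenever 1 mouse was left out. The order of levels kept 8 of 8 places on TMM-scaled values and 6 to 8 when 1 mouse was left out (6 without mouse 1). Of the 10 genes nearest to S1pr5, 4 remained by Spearman's correlation and 3 to 4 when 1 mouse was left out.

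With the filter on low counts, S1pr5 could not be fitted without mouse 1, in mice 3 and 4 alone or with 10 counts in every library. At the depth of these libraries S1pr4, S1pr5 and Rgs16 rest on few counts and the causes of these differences between methods were not tested.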
